A study of Homo sapiens with 84 samples.

Results

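IFITM1, IFITM2, IFITM3, IFI6, IFI27, IFI44 and IFI44L are 7 interferon-induced genes, taken by name from the 57964 genes of a count table of lung cancer cells exposed to inhibitors of PARP7. All 7 were found in the table and passed the filter on low counts in both cell lines. NCI-H1373 and NCI-H647, established human non-small cell lung cancer lines, were kept for 6 or 24 h in the vehicle DMSO, in RBN-2397 at 10, 30 or 300 nM, or in RBN012337 at 3, 10 or 100 nM. PARP7, the target of both compounds in the labels, is an enzyme that adds single ADP-ribose units to proteins and is the product of TIPARP. The doses lie near those that inhibit a low, a middle and a high share of the activity. The sample labels spell the first compound RBN012397 and the design text RBN-2397. There were 84 libraries, 3 in each of 28 groups. The titles number replicates 1 to 3 and the labels name no culture, plate or day for them, so the spread behind each p-value is that of these libraries and may be technical in part. Each treatment of a line and time is set against the same 3 DMSO libraries, so the comparisons with DMSO share their controls.

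Type I interferons bind the receptor made of IFNAR1 and IFNAR2, and type III interferons a receptor that contains IFNLR1. Both activate the kinases JAK1 and TYK2 and the factor ISGF3, which contains IRF9 and binds interferon-stimulated response elements near the start of its target genes. PARP7 is known as a brake on the sensing of nucleic acids that leads to type I interferon. IFITM1, IFITM2 and IFITM3 are small membrane proteins that hinder the fusion of enveloped viruses with cell membranes, IFITM1 mainly at the cell surface, IFITM2 and IFITM3 mainly in endosomes. IFI6 and IFI27 belong to one family of small hydrophobic proteins, IFI6 in the endoplasmic reticulum and mitochondria and IFI27 mainly in mitochondria. IFI44 and IFI44L are neighbouring paralogs, and IFI44L is often used in blood signatures of interferon exposure.

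Positions are on GRCh38 from GENCODE 29. IFI6 (ENSG00000126709.14) lies on chromosome 1 at 27666061 to 27672218 on the minus strand. IFI44L (ENSG00000137959.15, 78619922 to 78646145) and IFI44 (ENSG00000137965.10, 78649796 to 78664078) follow each other on the plus strand of the same chromosome. On chromosome 11 IFITM2 (ENSG00000185201.16, 307631 to 315272) and IFITM1 (ENSG00000185885.15, 313506 to 315272) lie on the plus strand, and IFITM3 (ENSG00000142089.15, 319669 to 327537) lies on the minus strand. The annotated span of IFITM1 lies inside that of IFITM2, and both end at the same base. IFI27 (ENSG00000165949.12) lies on chromosome 14 at 94104836 to 94116698 on the plus strand.

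The sequences before the transcription starts are shown for the genes that have one in RefSeq, because most of them rose at 24 h in both lines and because ISGF3 is known to bind a repeat of this kind. They are RefSeq sequences on GRCh38.p14, read 5′ to 3′ on the strand of the gene. Capitals mark each match to GAAANNGAAA on either strand that ends before the start. A second match of IFITM1 runs past the start and is not in capitals. RefSeq windows of 300 bases, from 250 before to 50 after a start, were at hand for 6 of the 7 genes. IFITM2 had no window and was not searched for the motif.
IFI6 (chr1:27672261-27672363, minus strand): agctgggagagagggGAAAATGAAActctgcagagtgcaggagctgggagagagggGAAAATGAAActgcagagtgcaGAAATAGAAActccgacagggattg
IFI44L (chr1:78620269-78620399, plus strand): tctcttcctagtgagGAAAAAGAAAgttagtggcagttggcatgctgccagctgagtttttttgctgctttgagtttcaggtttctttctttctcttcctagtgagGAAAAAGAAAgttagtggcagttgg
IFI44 (chr1:78649756-78649788, plus strand): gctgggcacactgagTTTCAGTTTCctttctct
IFITM1 (chr11:313985-314039, plus strand): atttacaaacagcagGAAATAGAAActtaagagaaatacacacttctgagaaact
IFITM3 (chr11:320871-320927, minus strand): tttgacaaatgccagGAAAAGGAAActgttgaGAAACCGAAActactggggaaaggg
IFI27 (chr14:94110613-94110665, plus strand): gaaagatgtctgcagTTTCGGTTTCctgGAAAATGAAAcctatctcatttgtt

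All 6 genes with a window held the motif, which 4.38% of 27305 genes with a window also hold (3.57% of 35116 windows). Among the other interferon-stimulated genes of a list of 47, 20 of the 37 with a window (54.1%) hold it. IFI6 has 3 matches, at positions -156, -115 and -93 from its start, the first 2 inside a repeated stretch. IFI44L also has its 2 matches, at -164 and -73, inside a repeated stretch. IFITM3 has 2 matches, at -52 and -35, and IFI27 has 2 on opposite strands, at -108 and -95. From a second RefSeq start of IFI27 these lie at -187 and -174. IFI44 has 1 match on the opposite strand, at -18, or at -60 from a second RefSeq start. IFITM1 has 1 at -40 and another that begins at -6 and runs past the start. A match describes these letters and is not a measured binding site.

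Depth was 630855 to 5994444 counts per library in NCI-H1373, and in NCI-H647 it was 1769332 to 6938648. The shallowest library, with the fewest genes detected (13600), was DMSO replicate 3 of NCI-H1373 at 24 h, 1 of the 3 controls there. Its mitochondrial share was 8.04%, beside 12.4% and 11.7% in replicates 1 and 2. The 84 pairs of replicates within groups all differed beyond counting noise. Of 7 epithelial markers, 7 reached a mean of 1 CPM, that is, a count scaled to the library's total, in NCI-H1373 and 5 in NCI-H647, where CDH1 and CLDN4 were lower. Of 6 leukocyte markers 1 reached that level, and PTPRC, CD3E, CD14 and LYZ were among those that did not. Their summed level ran from 2.50 to 17.1 CPM in NCI-H1373 and from 4.15 to 11.6 CPM in NCI-H647. TIPARP, whose product the compounds inhibit, rose by 1.18 ± 0.27 at 6 h (adjusted p = 0.0244) and by 1.04 ± 0.28 at 24 h (adjusted p = 0.0118) on the log2 scale in NCI-H1373. In NCI-H647 its changes were 0.29 ± 0.52 and 0.27 ± 0.53 (edgeR adjusted p = 0.933 and 0.843). Levels below are CPM with library sizes scaled by TMM over the 84 libraries. A level is not divided by length, since 3' reads count transcript ends, and levels are compared only within a gene.

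After 24 h of PARP7 inhibition 6 of the 7 genes rose in NCI-H1373 and 5 of the 7 in NCI-H647, with all 18 treated libraries of a line set against its 3 DMSO libraries. Among all tested genes 6.13% rose and 6.02% fell in NCI-H1373, and 2.26% rose and 2.72% fell in NCI-H647. The median log2 change of the 7 genes was 2.31 and 2.79, beside -0.0057 and -0.016 for all genes. No gene of the 7 fell, and all 7 had an unadjusted p under 0.05 in each line. A gene is called here when its adjusted p is under 0.05 (edgeR quasi-likelihood F test, Benjamini-Hochberg over all tested genes). In a bulk culture more RNA per cell and more cells of one kind that carry it cannot be told apart.

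IFITM1, the surface member of the IFITM proteins, stood at 27.5, 29.2 and 52.1 CPM in the DMSO libraries of NCI-H1373 at 24 h. The 18 treated libraries ran from 33.2 through a median of 378 to 1121 CPM. Treated libraries lay above the highest DMSO library in 17 of 18 cases, the exception being replicate 2 of RBN012337 at 100 nM. The rise was 3.59 ± 0.80 on the log2 scale (adjusted p = 0.00422). In NCI-H647 the DMSO libraries held 22.9, 4.29 and 14.3 CPM, and the treated ones ran from 0 through 128 to 593 CPM. Of the treated libraries 16 of 18 lay above DMSO and 2, at 0 and 3.50 CPM, below it, and the rise was 3.28 ± 0.96, or 9.72-fold (adjusted p = 0.0436).

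IFITM3, the endosomal member that restricts influenza virus, was already at 462, 382 and 666 CPM in DMSO in NCI-H1373. Treated libraries ran from 432 through 1093 to 1994 CPM, 15 of 18 above the highest DMSO library. It rose by 1.17 ± 0.30, or 2.25-fold (adjusted p = 0.00893). The DMSO libraries of NCI-H647 were close to these, with 476, 283 and 450.2 CPM, and the treated ones ran from 284 through 846 to 1679 CPM. There 16 of 18 lay above DMSO and the rise was 1.08 ± 0.28, or 2.11-fold (adjusted p = 0.0196).

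For IFITM2 the groups overlapped more. DMSO libraries held 66.1, 32.8 and 108 CPM in NCI-H1373 and 39.9, 22.0 and 29.8 CPM in NCI-H647. Treated libraries ran from 35.1 through 121 to 200.2 CPM, with 11 of 18 above DMSO, and from 25.3 through 49.8 to 161 CPM, with 13 of 18 above DMSO. The changes of 0.87 ± 0.33 and 0.81 ± 0.33 were not past the threshold (adjusted p = 0.0745 and 0.156). Values of IFITM1 and IFITM2 are uncertain one by one, as described further down.

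IFI6, which limits apoptosis and the replication of flaviviruses, was at 51.7, 35.9 and 38.2 CPM in DMSO in NCI-H1373 and at 33.8, 212 and 582 CPM as the lowest, median and highest of the treated libraries. It lay above DMSO in 17 of 18 and rose by 2.44 ± 0.61, or 5.41-fold (adjusted p = 0.00936). In NCI-H647 it went from 61.2, 76.6 and 94.2 CPM to 90.0, 463 and 1552 CPM, again above DMSO in 17 of 18. There the rise was 2.79 ± 0.62, or 6.93-fold (adjusted p = 0.00889).

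Levels of IFI27, its mitochondrial relative, differed between the lines before treatment. DMSO libraries held 129, 55.4 and 78.1 CPM in NCI-H1373 and 13.9, 3.47 and 12.7 CPM in NCI-H647 at 24 h. The treated libraries reached 106, 423 and 860.0 CPM (lowest, median, highest) in the first line and 6.12, 111 and 527 CPM in the second. In each line 17 of 18 lay above DMSO. The rise was 2.31 ± 0.48, or 4.97-fold (adjusted p = 0.00269), in NCI-H1373 and 3.84 ± 0.90, or 14.4-fold (adjusted p = 0.0118), in NCI-H647.

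IFI44L held only 3.20, 2.05 and 8.68 CPM in DMSO in NCI-H1373, and its treated libraries ran from 7.52 through 105 to 232 CPM. With 17 of 18 above DMSO it rose by 4.86 (95% interval 2.82 to 6.90, adjusted p = 0.00228). In NCI-H647 it started at 46.4, 13.2 and 38.6 CPM and ran from 14.2 through 217 to 559 CPM with treatment, 17 of 18 above DMSO. The rise there was 2.85 ± 0.75, or 7.20-fold (adjusted p = 0.0251).

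Its neighbour IFI44 moved less. In NCI-H1373 it went from 70.1, 34.4 and 41.6 CPM in DMSO to 38.8, 114 and 212 CPM (lowest, median, highest), with 15 of 18 above DMSO. This was a rise of 1.29 ± 0.38, or 2.44-fold (adjusted p = 0.0238). In NCI-H647 it went from 46.7, 15.5 and 39.1 CPM to 15.5, 85.7 and 199 CPM, with 16 of 18 above DMSO. The change of 1.44 ± 0.50 was not past the threshold there (adjusted p = 0.0892).

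**Figure D1:**
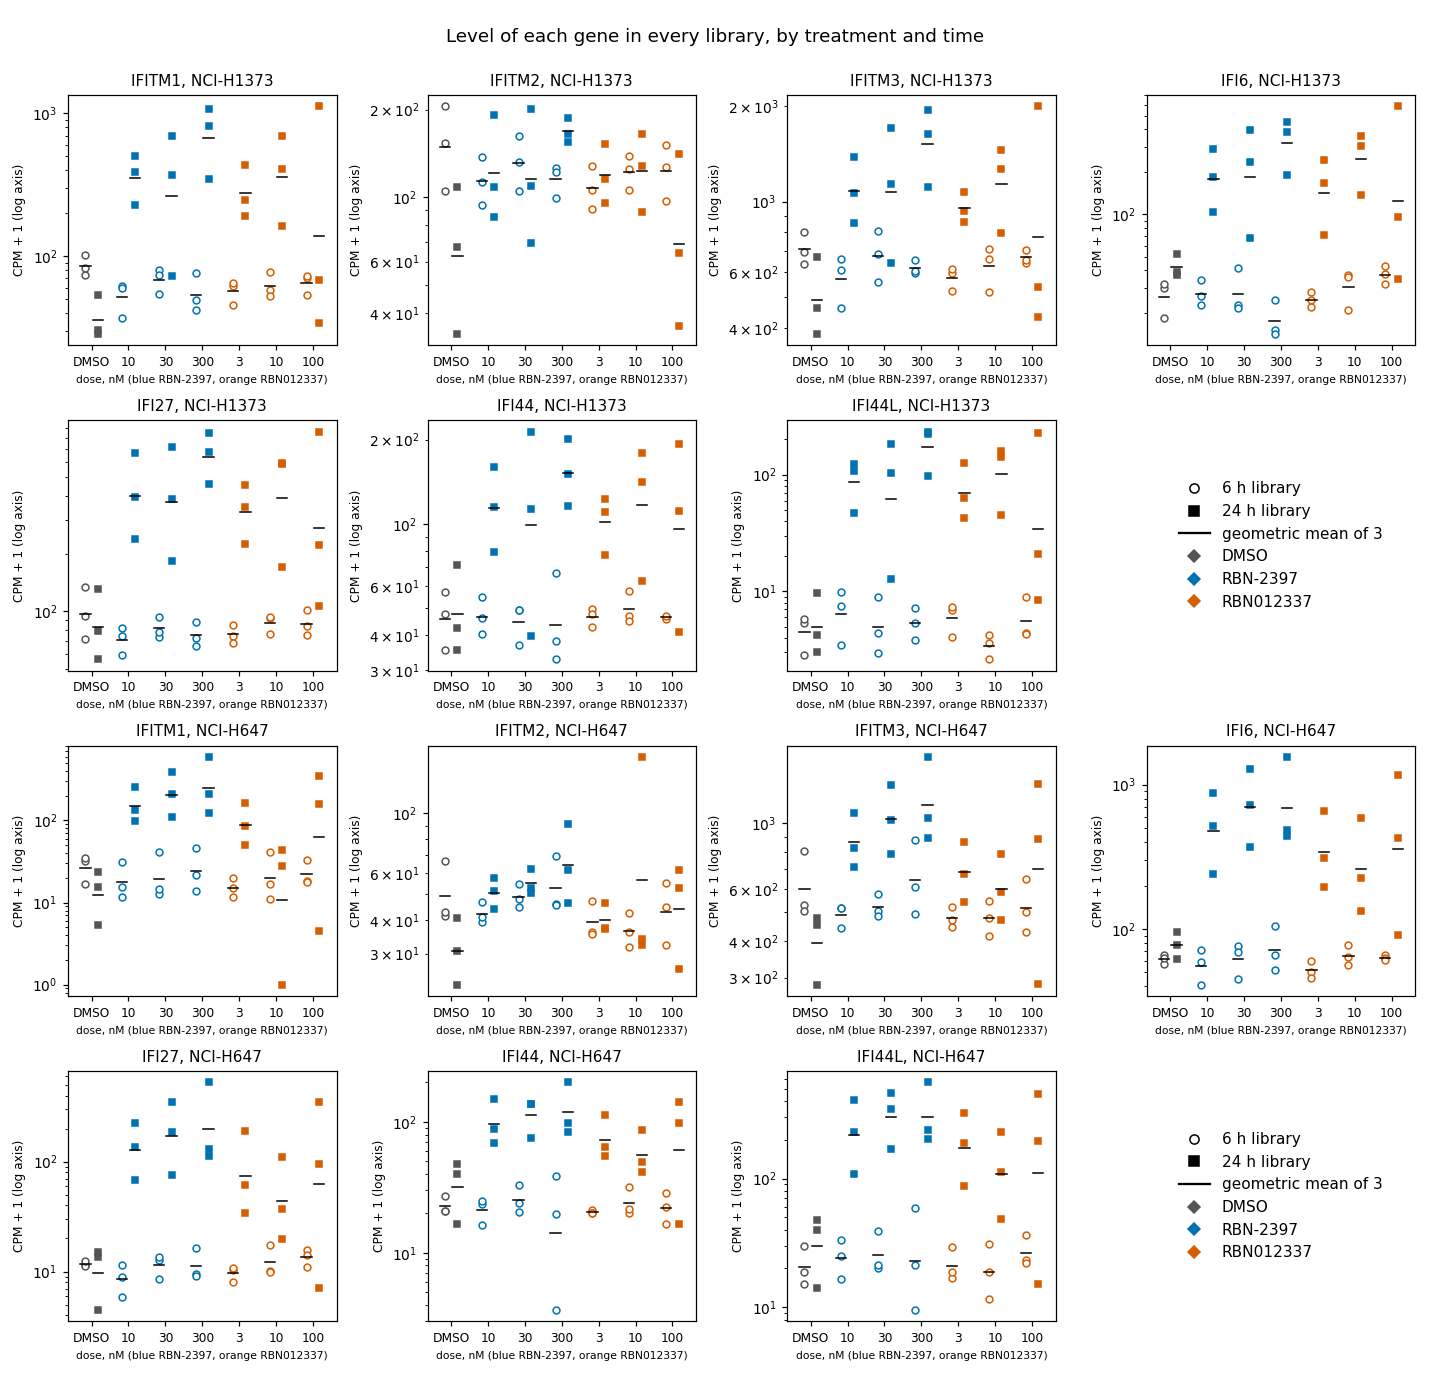
CPM + 1 of each of the 7 genes on a log axis for every library, by line, time (open circles 6 h, squares 24 h) and dose in nM, with 1 point per library and a line at the geometric mean of 3. At 24 h most treated libraries lie above the 3 DMSO libraries (17 of 18 for IFI6, IFI27 and IFI44L in each line), while at 6 h treated and DMSO libraries overlap.

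Part of these calls rests on single libraries. Without DMSO replicate 1 of NCI-H1373 at 24 h 1 of 7 genes passed, and without DMSO replicate 2 of that line 3 did. Without DMSO replicate 2 of NCI-H647 at 24 h none passed, and without replicate 3 of that group 1 did. IFI27 in NCI-H1373 was called in each of the 21 fits that left out one 24 h library, at log2 changes of 2.05 to 2.70. IFITM1 in NCI-H647 was called in 7 of 21 such fits (largest adjusted p = 0.202), so leaving out most single libraries, treated ones included, ended that call. With only the 24 h libraries in the fit, 3 genes passed in NCI-H1373 (IFI44L at adjusted p = 0.029, IFI27 at 0.036 and IFITM1 at 0.048) and none in NCI-H647 (adjusted p from 0.078 to 0.304). No change turned its direction under these settings. Compared within each replicate number, the mean log2(CPM + 1) of the treated libraries lay above DMSO for all 7 genes under all 3 numbers in both lines. For IFITM1 in NCI-H1373 these differences were 3.43, 2.92 and 2.98, and for IFI27 in NCI-H647 2.00, 3.75 and 4.24. For IFITM2 they were 1.13, 1.39 and 0.11 in NCI-H1373 and 0.16, 0.82 and 1.22 in NCI-H647, so 1 number in each line lay close to 0.

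At 6 h none of the 7 genes was called in either line, and none had an unadjusted p under 0.05. DESeq2 called none either. The 6 h comparisons include replicate 1 of RBN-2397 at 300 nM in NCI-H1373 and replicate 2 of that treatment in NCI-H647. Both were low in CYP1B1, a target of the aryl hydrocarbon receptor, as described further down. Treated libraries of replicate 1 in NCI-H647 lay near DMSO in CYP1B1, also given there. Among the controls, DMSO replicate 2 was the highest in TIPARP, at 73.7 CPM in NCI-H1373 and 44.8 CPM in NCI-H647. Within replicate numbers 1, 2 and 3, IFITM1 differed from DMSO by -0.27, -1.07 and -0.22 in NCI-H1373 in mean log2(CPM + 1). In NCI-H647 these values were 0.08, -1.31 and -0.12. Leaving out any single 6 h library left 0 called genes over all treatments in each line. Log2 changes were -0.51 to 0.12 in NCI-H1373 (smallest adjusted p = 0.622) and -0.37 to 0.21 in NCI-H647 (smallest adjusted p = 0.855). Among all genes 0.569% were called higher and 0.592% lower in NCI-H1373 at 6 h, and 0.00676% each way in NCI-H647. IFITM1 in NCI-H1373 stood at 72.6, 101 and 81.2 CPM in DMSO and at 35.8, 59.6 and 78.6 CPM (lowest, median, highest) in treated libraries. The treated values thus lay inside or below the DMSO range. IFI27 in the same line was at 93.4, 133 and 70.6 CPM in DMSO and at 58.3, 76.6 and 101 CPM with treatment. IFI44L was at 4.32, 4.84 and 1.87 CPM and at 1.62, 3.44 and 8.89 CPM. Both pairs of groups overlapped.

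In NCI-H647 at 6 h IFI6 was at 65.3, 55.8 and 61.5 CPM in DMSO and ran from 40.2 through 60.6 to 105 CPM with treatment. IFI27 was at 10.4, 10.3 and 11.6 CPM and ran from 4.92 through 9.58 to 16.6 CPM. For IFITM3 the DMSO libraries held 529, 803 and 503 CPM and the treated ones 415, 501 and 875 CPM (lowest, median, highest). In each case the treated libraries lie on both sides of the DMSO range. The same held for IFI44, with 26.3, 19.8 and 19.9 CPM in DMSO and 2.66, 20.5 and 37.8 CPM with treatment.

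**Figure D2:**
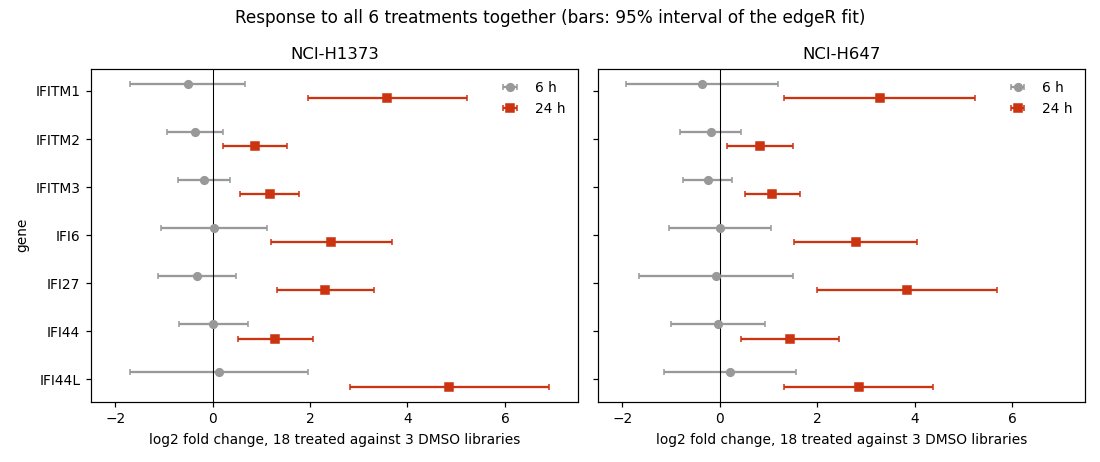
Log2 change of each gene between all treated libraries (18) and DMSO (3) with 95% intervals, at 6 and 24 h in each line. Every 6 h interval spans 0, and the 24 h values are 0.87 to 4.86 in NCI-H1373 and 0.81 to 3.84 in NCI-H647.

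The response at 24 h minus the response at 6 h was tested as a difference of its own. In NCI-H1373 it passed for 2 of the 7 genes, beside 0.382% of all genes. These were IFITM1 at 4.10 ± 0.94 (95% interval 2.18 to 6.02, adjusted p = 0.0406) and IFI27 at 2.63 ± 0.60 (1.41 to 3.85, adjusted p = 0.0403). IFI44L had the largest estimate of the 7, 4.73 ± 1.36, and was not past the threshold (adjusted p = 0.0922). The other 4 estimates were 1.23 to 2.41, and 0.148% of all genes differed the other way. In NCI-H647 none of the 7 passed with edgeR, as no gene at all did (0%), although all 7 estimates lay between 1.01 and 3.92 with an unadjusted p under 0.05 (smallest adjusted p = 0.475), and DESeq2 called 2. With IFITM1 and IFITM2 counted as one gene, the difference in NCI-H1373 was 2.80 ± 0.74 (adjusted p = 0.0703), so the sum was not called. Leaving out 1 library gave 0 to 5 called genes in NCI-H1373, with 0 after any of 9 libraries, among them DMSO replicates 1 and 2 at 6 h and at 24 h.

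DMSO libraries entered these differences at both times, and none of the 7 genes passed between DMSO at 24 h and at 6 h. Of all genes 3.66% were higher and 5.46% lower at 24 h in NCI-H1373, and 0.0744% and 0.21% in NCI-H647. IFITM2 in NCI-H1373 came nearest, with -1.19 ± 0.40 (adjusted p = 0.0548). IFITM1 had -1.27 ± 0.83 in that line and -0.99 ± 1.07 in NCI-H647.

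Single doses at 24 h were each set against DMSO. With RBN-2397 at 10, 30 and 300 nM, 5, 3 and 7 of the 7 genes rose in NCI-H1373, beside 4.26%, 1.68% and 6.83% of all genes. The same doses gave 2, 3 and 5 in NCI-H647, beside 1.08%, 0.696% and 2.22%. With RBN012337 at 3, 10 and 100 nM, 3, 4 and 0 genes rose in NCI-H1373, beside 4.96%, 1.86% and 0.195%. In NCI-H647 none rose at any dose of RBN012337, beside 0.365%, 0.135% and 0.101% of all genes. With all genes kept or with DESeq2 several of the counts for RBN012337 rose (given in the closing part), so a count of 0 here is no sign of an unchanged gene. With only the 24 h libraries in the fit, no gene was called for RBN-2397 at 10 or 30 nM in either line or for RBN012337 at 3 or 10 nM in NCI-H1373. Leaving out 1 library likewise brought each of these counts to 0 in at least 1 fit, and IFI6 in NCI-H1373 was called in 1 of 6 such fits both for RBN-2397 at 10 nM and for RBN012337 at 10 nM.

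IFITM1 in NCI-H1373 held 501, 228 and 386 CPM with RBN-2397 at 10 nM, 689.5, 71.9 and 369 CPM at 30 nM, and 347, 821 and 1079.8 CPM at 300 nM. With RBN012337 it held 248, 438 and 191 CPM at 3 nM, 409, 699 and 161 CPM at 10 nM, and 66.6, 33.2 and 1121 CPM at 100 nM. Replicates spread widely within a dose, most of all at 100 nM of RBN012337, where 1 library was the highest of all and another lay inside the DMSO range. The rise over DMSO was 4.45 ± 0.90 at 300 nM of RBN-2397 (adjusted p = 0.00239), and the change at 100 nM of RBN012337 was 3.56 (adjusted p = 0.0985). In NCI-H647 the gene held 97.9, 133 and 255 CPM with RBN-2397 at 10 nM, 108, 208 and 386 CPM at 30 nM, and 206, 124 and 593 CPM at 300 nM. With RBN012337 it held 49.1, 83.5 and 163 CPM at 3 nM, 27.1, 42.9 and 0 CPM at 10 nM, and 158, 3.50 and 349.6 CPM at 100 nM. Only 300 nM of RBN-2397 was called in that line (4.54 ± 1.10, adjusted p = 0.0207).

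IFI27 was called in NCI-H1373 at every dose but 100 nM of RBN012337. It held 667, 236 and 393 CPM with RBN-2397 at 10 nM, 713, 183 and 384 CPM at 30 nM, and 458, 670.2 and 844 CPM at 300 nM. RBN012337 gave 349, 453 and 224 CPM at 3 nM, 583, 593 and 169.7 CPM at 10 nM, and 219.8, 106 and 860.0 CPM at 100 nM. Of these libraries 17 lay above the highest DMSO value of 129 CPM. In NCI-H647 it was called at all 3 doses of RBN-2397, with 66.8, 135 and 224 CPM at 10 nM, 75.4, 185 and 347 CPM at 30 nM, and 131, 112 and 527 CPM at 300 nM. The rises were 3.92, 4.42 and 4.79 (adjusted p = 0.0351, 0.0273 and 0.00935). RBN012337 gave 33.1, 60.3 and 187 CPM at 3 nM, 19.0, 36.1 and 110.1 CPM at 10 nM, and 95.3, 6.12 and 349 CPM at 100 nM, none of them called.

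In NCI-H1373 IFI6 rose at 3 treatments, RBN-2397 at 10 nM, RBN-2397 at 300 nM and RBN012337 at 10 nM. Its libraries held 290.4, 103 and 182 CPM, 393, 67.3 and 235 CPM, and 189, 380.4 and 448 CPM with RBN-2397 at 10, 30 and 300 nM. They held 165, 243 and 70.7 CPM, 303, 356 and 136 CPM, and 95.5, 33.8 and 582 CPM with RBN012337 at 3, 10 and 100 nM. Replicate 2 at 100 nM was the one value not above the DMSO range. In NCI-H647 it rose at each dose of RBN-2397, with 241, 518 and 867 CPM, 369, 716 and 1281 CPM, and 486, 440.2 and 1552 CPM. These rises were 2.80 ± 0.69, 3.33 ± 0.70 and 3.41 ± 0.71 (adjusted p = 0.0323, 0.0184 and 0.00861). RBN012337 gave 195, 308 and 653 CPM, 131, 223 and 590.3 CPM, and 428, 90.0 and 1171 CPM. At each dose of either compound replicate 3 of NCI-H647 was the highest of its group for IFI6, IFI27, IFI44, IFI44L and IFITM3.

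IFI44L in NCI-H1373 held 122, 46.2 and 107 CPM with RBN-2397 at 10 nM, 180.4, 11.7 and 102 CPM at 30 nM, and 97.1, 219.7 and 232 CPM at 300 nM. With RBN012337 it held 61.8, 125 and 41.3 CPM at 3 nM, 142, 159.8 and 44.4 CPM at 10 nM, and 19.9, 7.52 and 224 CPM at 100 nM. The change reached 5.68 ± 1.08 at 300 nM of RBN-2397 (adjusted p = 0.00138) and was called at every dose but 100 nM of RBN012337 (4.54, adjusted p = 0.0839). In NCI-H647 its libraries held 107, 230.2 and 406 CPM, 168, 346 and 459.9 CPM, and 204, 239 and 559 CPM with RBN-2397 at 10, 30 and 300 nM. The 3 doses of RBN012337 gave 86.5, 187 and 321 CPM, 47.2, 111 and 229.9 CPM, and 196, 14.2 and 450.2 CPM in the same line. Only 300 nM of RBN-2397 was called there (3.38 ± 0.85, adjusted p = 0.0255).

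IFITM3 was called at 10 and 300 nM of RBN-2397 in NCI-H1373 and at 30 and 300 nM in NCI-H647. At 300 nM it held 1112, 1630.2 and 1939.6 CPM in NCI-H1373 (1.64 ± 0.36, adjusted p = 0.00345) and 1039, 888 and 1679 CPM in NCI-H647 (1.56 ± 0.34, adjusted p = 0.00997). All 6 of these libraries lay above their DMSO range. IFI44 and IFITM2 were called at 1 treatment each, 300 nM of RBN-2397 in NCI-H1373. IFI44 held 150.3, 115 and 199 CPM (1.64 ± 0.46, adjusted p = 0.0182) and IFITM2 164, 153 and 186 CPM (1.34 ± 0.40, adjusted p = 0.0255).

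**Figure D3:**
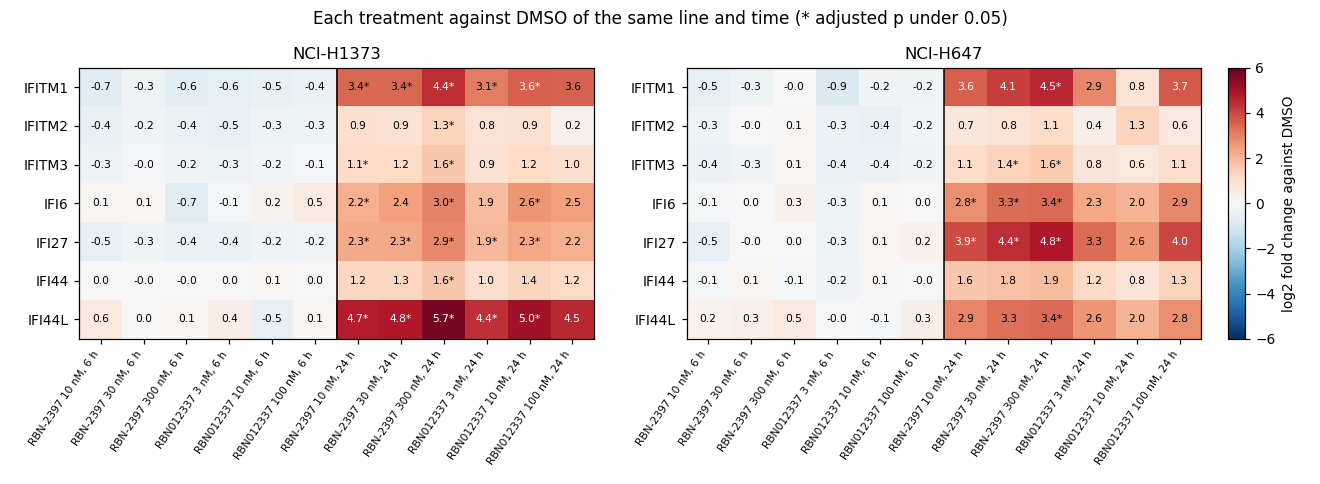
Log2 change against DMSO for each gene (rows) and treatment at 6 and 24 h (columns) in each line, with its value and a star where the edgeR adjusted p is under 0.05. At 24 h RBN-2397 at 300 nM has 7 called genes in NCI-H1373 and 5 in NCI-H647, and RBN012337 at 100 nM has none in either.

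RBN-2397 and RBN012337 share the dose of 10 nM, and there they were compared directly. This made 28 comparisons (7 genes, 2 lines, 2 times), with p-values adjusted over all genes, and 0 were past the threshold (0% of all genes at either time). In NCI-H1373 at 24 h the difference, RBN-2397 minus RBN012337, ran from -0.46 to 0.018. For IFI6 it was -0.46 (95% interval -1.76 to 0.84), for IFI44L -0.33 (-1.90 to 1.24) and for IFITM1 -0.18 (-1.73 to 1.37). The intervals of IFI44L and IFITM1 include a 2-fold difference in either direction, and a missed threshold does not show that the compounds act alike. In NCI-H647 the differences were 1.34 (-0.37 to 3.05) for IFI27, 0.91 (-0.66 to 2.48) for IFI44L and 0.75 (-0.56 to 2.06) for IFI6. IFITM1 had 2.77 (0.73 to 4.81) in that line, a value that includes a library with 0 counts, and the sum of IFITM1 and IFITM2 had 1.08 (-0.14 to 2.29). The other doses differ between the compounds and are not compared.

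Within a compound, none of the 7 genes passed between the highest and the lowest dose at 24 h (0% of all genes for RBN-2397 in both lines and for RBN012337 in NCI-H647). From 10 to 300 nM of RBN-2397 all 7 estimates lay above 0, at 0.39 to 1.02 in NCI-H1373 and 0.32 to 0.93 in NCI-H647. From 3 to 100 nM of RBN012337 the estimates in NCI-H1373 ran from -0.60 for IFITM2 to 0.58 for IFI6, beside 0.0857% of all genes higher and 0.039% lower. The interval of IFITM1 over that range was -1.07 to 2.05, and no gene was called in a dose comparison at 6 h.

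The lines differed in where the genes started. In DMSO, with both times averaged, IFI27 was higher in NCI-H1373 than in NCI-H647 by 3.22 ± 0.57 (95% interval 2.08 to 4.36, adjusted p = 4.22e-06). IFITM2 was higher by 1.39 ± 0.29 (adjusted p = 8.04e-05). IFI44L differed the other way, by -2.80 ± 0.76 (-4.32 to -1.28, adjusted p = 0.00175). Such differences were common, with 21.4% of all genes higher in NCI-H1373 and 23.9% lower. The other 4 genes were not past the threshold, with IFITM3 at 0.27 (adjusted p = 0.403). The response at 24 h was not called different between the lines for any of the 7, beside 0.223% of genes higher and 0.247% lower. IFI27, lower at the start in NCI-H647, had a difference of -1.51 (-3.20 to 0.17), and IFI44L, lower at the start in NCI-H1373, had 2.02 (-0.33 to 4.38). The remaining 5 lay between -0.36 and 0.34. At 6 h none was called.

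IFITM1 and IFITM2 cannot be fully told apart in these counts. The last 300 bases of 3 transcripts of IFITM1 and of 1 transcript of IFITM2 share 100% of their 31-base words, while other transcripts of IFITM2 share 14.4% to 43.3% with any other gene, and the 4 transcripts of IFITM3 share 32.2% to 59.6%. IFI27, IFI44 and IFI44L share none or nearly none, at most 0.37% for 1 transcript of IFI27, and IFI6 shares 1.48%. Of the counts given to IFITM1 or IFITM2 at 24 h in NCI-H1373, IFITM1 took 29.3% to 47.1% in DMSO (median 32.6%) and 48.6% to 89.0% in treated libraries (median 72.7%). In NCI-H647 it took 16.4% to 36.5% in DMSO (median 32.5%) and a median of 71.7% in treated libraries, with 1 library at 0 and the rest from 12.1% to 86.7%. At 6 h the medians in DMSO and treated libraries were 33.0% and 31.2% in NCI-H1373 and 34.1% and 26.8% in NCI-H647.

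The library at 0 is replicate 3 of RBN012337 at 10 nM, NCI-H647, 24 h. It had 0 counts of IFITM1 and 500 of IFITM2, or 161 CPM, while the next highest treated library of that line and time had 90.7 CPM of IFITM2. Added together, IFITM1 and IFITM2 gave 60.2, 74.3 and 161 CPM in the 3 libraries of that group and 62.8, 26.3 and 44.1 CPM in DMSO. The sum depends less on how reads were divided. It rose at 24 h by 2.39 ± 0.61 in NCI-H1373 (adjusted p = 0.0104) and by 2.19 ± 0.55 in NCI-H647 (adjusted p = 0.018). With IFITM3 added, the rises were 1.46 ± 0.37 and 1.24 ± 0.32 (adjusted p = 0.0106 and 0.0194).

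**Figure D4:**
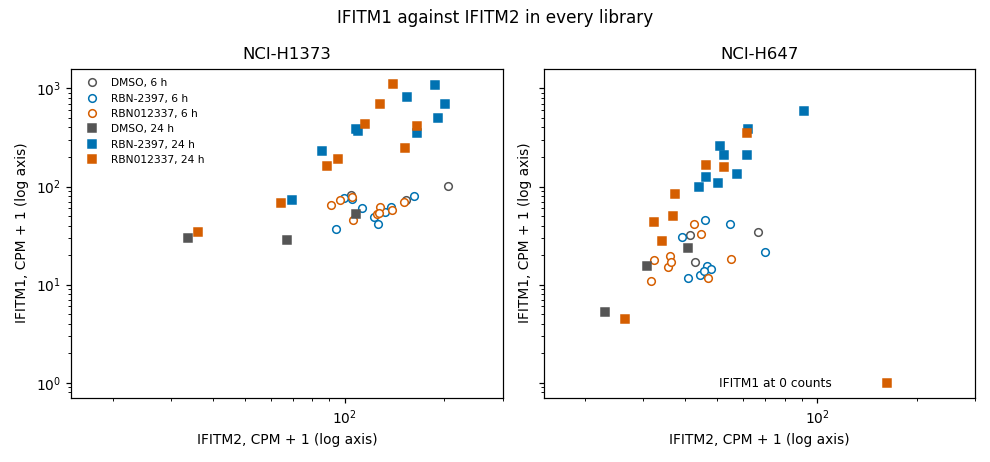
CPM + 1 of IFITM1 (vertical) against CPM + 1 of IFITM2 (horizontal), both on log axes, for every library of each line, with colours for DMSO and the compounds and filled squares for 24 h. Most treated 24 h libraries lie higher on the IFITM1 axis than the DMSO libraries, and the library of NCI-H647 with 0 counts of IFITM1 has the highest IFITM2 level of its panel (161 CPM).

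Replicate 2 of RBN012337 at 100 nM stood apart at 24 h in both lines. The mean log2(CPM + 1) over the 7 genes was 5.62 in that library of NCI-H1373, inside the DMSO range of 5.19 to 6.02, while the other 17 treated libraries ran from 6.32 to 8.94. In NCI-H647 it was 4.62, inside the DMSO range of 4.48 to 5.69, beside 5.87 to 8.98 in the others. The mean of the other interferon-stimulated genes was 4.63 in NCI-H1373 (DMSO 3.66 to 4.39, other treated libraries 4.90 to 6.71). In NCI-H647 it was 3.64 (DMSO 3.48 to 3.86, others 4.08 to 6.78). So the library lay at or near the DMSO level for the wider list too.

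CYP1B1, a target of the aryl hydrocarbon receptor chosen after its values were seen, lay above DMSO in the same libraries. It was at 122 CPM in NCI-H1373 (DMSO 6.94 to 31.2, other treated libraries 40.7 to 221) and at 284 CPM in NCI-H647 (DMSO 56.8 to 116, others 121 to 296). TIPARP was at 67.7 CPM in NCI-H1373 (DMSO 25.1 to 43.4, others 45.3 to 109). In NCI-H647 it was at 50.7 CPM, above DMSO (9.89 to 13.8) and above each of the other treated libraries (median 14.2). What sets these 2 libraries apart was not tested. Without replicate 2 of that group, 4 of the 7 genes were called at RBN012337 100 nM in NCI-H1373 and 5 in NCI-H647, in place of 0 and 0. The calls over all treatments were then 7 and 6. In NCI-H1373 leaving out replicate 2 of RBN-2397 at 30 nM also gave 7. Its mean over the 7 genes was 6.32, also low beside a median of 8.03 in the 17 treated libraries. At 6 h replicate 1 of RBN-2397 at 300 nM in NCI-H1373 held 11.7 CPM of CYP1B1, below each DMSO library. Other treated libraries there held at least 115 CPM. That replicate held 32.2 CPM of TIPARP (DMSO 22.5 to 73.7). Replicate 2 of that treatment in NCI-H647 held 46.3 CPM of CYP1B1 (lowest DMSO 79.2, lowest other treated 104). It held 9.04 CPM of TIPARP, below DMSO, with another treated library at 8.79. The treated libraries of replicate 1 in that line and time held 104 to 166 CPM of CYP1B1, beside 160 CPM in DMSO replicate 1. Those of replicates 2 and 3, apart from the library at 46.3 CPM, held 212 to 619 CPM. The causes were not tested.

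**Figure D5:**
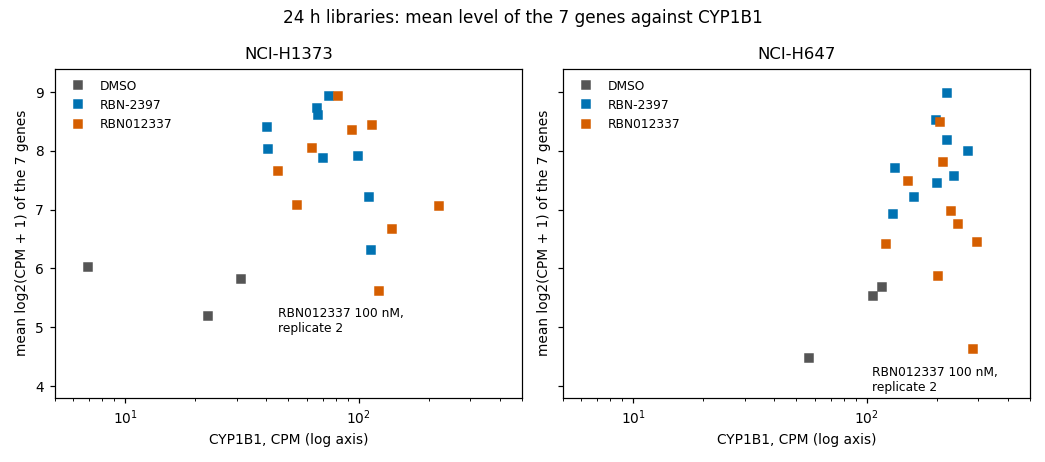
Mean log2(CPM + 1) of the 7 genes against CPM of CYP1B1 (log axis) for the 24 h libraries of each line, coloured by compound. Replicate 2 of RBN012337 at 100 nM lies at the height of the DMSO libraries (5.62 and 4.62) and to the right of them (122 and 284 CPM).

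Ordered by group mean over the 28 groups, the highest group was RBN-2397 at 300 nM for 24 h for every one of the 7 genes. It was the group of NCI-H1373 for IFITM1 (749 CPM), IFITM2 (168 CPM), IFITM3 (1561 CPM), IFI27 (657 CPM) and IFI44 (155 CPM), and that of NCI-H647 for IFI6 (826 CPM) and IFI44L (334 CPM). The 12 highest groups were all 24 h treatments for IFI6, IFI44 and IFI44L. They held 11 such groups for IFITM1, IFITM3 and IFI27 and 5 for IFITM2. Neighbours in the order did not separate beyond their spread, since of the 27 neighbouring pairs none was free of overlap for 5 genes and 1 each for IFI27 and IFI44L.

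Across the 14 group means of a line, the 15 pairs among the 6 genes without IFITM2 had a Pearson r of log2 CPM of 0.90 to 0.99 in NCI-H1373 (median 0.97) and of 0.80 to 0.99 in NCI-H647 (median 0.91). Pairs with IFITM2 had 0.10 to 0.49 and 0.43 to 0.78. These points share libraries and depth, and r is given as a description. Among the genes most like IFI6 were IFI16 (0.99) and SAMHD1 in NCI-H1373 and OAS1, HELZ2 and PLSCR1 in NCI-H647. IFI27, IFI44 and IFI44L had XAF1, SAMHD1 and MX1 in NCI-H1373. In NCI-H647 IFI27 had PLSCR1, OAS1 and OAS3, IFI44 had EIF2AK2 and IFIH1, and IFI44L had XAF1, OAS1 and OAS2. IFITM1 had UBE2L6 (0.98), PTGES and MX2 in NCI-H1373 and PSMB8, BST2 and TENT5A in NCI-H647. IFITM3 had UBE2L6, ADIRF and PTGES, and in NCI-H647 PSMB8, CNP and SLC25A28. The genes nearest IFITM2 were SELENOH, DNPH1 and ETFB in NCI-H1373 and MAGED1, AC023043.1 and SERPINB9 in NCI-H647.

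Of the other interferon-stimulated genes 32 of 45 tested rose at 24 h in NCI-H1373 and none fell, with a median of 1.36. In NCI-H647 24 of 46 rose and none fell, with a median of 1.51. Those with the smallest adjusted p in NCI-H1373 were OASL (4.79 ± 0.71), IFIT2 (3.71 ± 0.58), the kinase gene EIF2AK2 (1.36 ± 0.24) and the ubiquitin-like modifier gene ISG15 (2.84 ± 0.49), at adjusted p = 0.000134 to 0.000442. In NCI-H647 they were OASL (3.21 ± 0.66), ISG15 (3.45 ± 0.71), IFIT1 (4.39 ± 0.96) and OAS1 (3.39 ± 0.77), at adjusted p = 0.00544 to 0.00998. At 6 h 1 of 45 rose in NCI-H1373, RSAD2, named after its value was seen, by 1.69 ± 0.43 (adjusted p = 0.0381), and none of 46 in NCI-H647.

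Of the ligand, receptor and kinase genes of the pathway, none of 10 tested in NCI-H1373 and of 8 in NCI-H647 rose at 24 h. One fell in each line, the receptor gene IFNAR1, by 0.74 ± 0.18 in NCI-H1373 (adjusted p = 0.00716) and by 0.71 ± 0.14 in NCI-H647 (adjusted p = 0.00286). IFNAR2 had -0.65 (adjusted p = 0.433) and -0.10 (adjusted p = 0.855). IFNL1, a type III interferon gene, had 3 counts over the 3 DMSO libraries of NCI-H1373 at 6 h and 416 over the treated ones, 17 of 18 of which held at least 1. Scaled for depth this is a ratio with a 95% interval of 6.78 to 97.1 for counting error, and it was not past the threshold (edgeR adjusted p = 0.08). At 24 h it had 4 counts, all in 1 of 3 DMSO libraries, and 175 counts in the treated ones, found in 18 of 18. This is a ratio of 5.80 (2.23 to 21.5), with an interval that again leaves out the spread between libraries. In NCI-H647 it had 0 counts in DMSO and at most 2 with treatment. IFNB1 had no counts in DMSO or at 6 h, and at 24 h 7 counts in 4 of 18 treated libraries of NCI-H1373 and 13 counts in 7 of 18 of NCI-H647. At counts this low, 3 DMSO libraries are too few to show that it was absent without treatment.

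Of the relatives of the 7 genes by name 3 were tested, and 1 of them was called at 24 h in NCI-H1373 and none in NCI-H647. Their median log2 change was 0.68 and -0.26. IFI27L2 rose at 24 h in NCI-H1373, by 0.68 ± 0.19 (adjusted p = 0.0132), and had 0.0036 in NCI-H647. IFI27L1 had 0.18 (adjusted p = 0.559) and -0.26 (adjusted p = 0.523). IFITM10 had 0.88 ± 0.36 (adjusted p = 0.106) and -0.62 (adjusted p = 0.21). The remaining relatives, IFITM4P, IFITM5, IFITM8P and IFITM9P, had 1 to 3 counts over all libraries.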

How the data were processed

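Gene expression was measured in 84 libraries of 3' digital gene expression, read paired-end per the labels' protocols. The authors deposited 1 table of estimated counts per gene, not normalized or pooled, made with Salmon 0.11.27 on hg38 per the submitters' processing notes. Not given in the sources used here are the annotation and whether molecular identifiers or strand were used. Of the nonzero values 49.4% were not whole, and counts were rounded. Names came from GENCODE 29 for 57845 of 57964 genes.

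Each line was fitted alone over its 42 libraries with edgeR 4.0.16 (filterByExpr, TMM, robust quasi-likelihood F test), which kept 12832 genes in NCI-H1373 and 14789 in NCI-H647. Differences between lines used all 84 libraries and 16177 genes. The Benjamini-Hochberg adjustment ran over all genes of a contrast, with a threshold of 0.05. Errors beside log2 changes are standard errors. Intervals on counts cover counting error only. The script was tested on simulated data.

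Alternatives were DESeq2, RLE scaling, unrounded counts, no filter, 1 time only, a replicate block, each library left out and, chosen after seeing the data, summed IFITM1 and IFITM2. The 7 genes and the lists were chosen with earlier results of these data known. The rule for named genes takes the 7, relatives with at least 10 counts, 4 interferon-stimulated genes by adjusted p, called or listed pathway genes, TIPARP and 3 genes most like each. Some genes that met this rule are not reported here.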

Additional observations from a re-analysis of the deposited data

Results flagged for a closer look

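For 2 of the 7 genes the response itself differed between times in NCI-H1373, by a test of that difference (edgeR quasi-likelihood, adjusted over all genes). IFITM1 responded by 4.10 more on the log2 scale at 24 h than at 6 h, and IFI27 by 2.63 more. The 24 h DMSO libraries held 27.5, 29.2 and 52.1 CPM of IFITM1, and the 6 h ones 72.6, 101 and 81.2 CPM. This gap between the DMSO libraries enters the difference directly. In a test of its own, described above, it was not past the threshold.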

How the results depend on the processing

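Unless named otherwise, each number here is a count of the 7 genes called, and comparisons are at 24 h against DMSO. With only the libraries of that time in the fit, the count over all treatments was 3 in place of 6 in NCI-H1373 and 0 in place of 5 in NCI-H647. For RBN-2397 at 300 nM it went from 7 to 4 and from 5 to 0, and it was 0 for RBN-2397 at 10 and 30 nM in both lines and for RBN012337 at 3 and 10 nM in NCI-H1373. With no filter on low counts, more were called: 7 for RBN-2397 at 30 nM in both lines and for RBN012337 at 3 and 10 nM in NCI-H1373, 6 for RBN-2397 at 10 nM in NCI-H647, for RBN012337 at 100 nM in both lines and at 3 nM in NCI-H647, and 4 for RBN012337 at 10 nM in NCI-H647. It also gave 7 for the difference between times in each line, 3 for the 10 nM comparison of compounds in NCI-H647, 1 for the line difference and 6 for the DMSO lines. DESeq2 called 5 for RBN-2397 at 10 nM in NCI-H647 (edgeR 2) and 5 at 30 nM in both lines (edgeR 3). It called 4 and 3 for RBN012337 at 100 nM, 3 for RBN012337 at 3 nM in NCI-H647, 5 and 2 for the difference between times, and 5 for the DMSO lines, where edgeR called 3. RLE scaling, and IFITM1 to IFITM3 summed, each gave 3 for RBN-2397 at 10 nM in NCI-H1373 in place of 5. Either sum of the IFITM genes gave 1 for the difference between times in NCI-H1373 in place of 2.

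Whether replicate numbers pair the libraries is not settled, and the main fit does not use them. Same-numbered treated and DMSO libraries correlated, as deviations from group means, with medians of 0.37 and 0.26 in NCI-H1373 (6 and 24 h). No value there was under 0 (lowest 0.030 and 0.0091). In NCI-H647 medians were 0.12 and 0.094 (lowest -0.064 and -0.078). Every number was above 0.1 in 4 and 2 of 6 treated groups of NCI-H1373 and 1 and 0 of 6 of NCI-H647. At 24 h in NCI-H1373 replicate 1 was also deeper (2868441 to 5456349 counts) than replicates 2 (1334151 to 1623076) and 3 (630855 to 1778506). The part of depth was not tested. A fit with a replicate block called, in NCI-H647, 6 for RBN-2397 at 10 nM and at 30 nM, 3, 1 and 2 for RBN012337 at 3, 10 and 100 nM, and 1 for the difference between times. Over both lines the block added 22 single-gene calls and ended 1 of 119, IFI6 for RBN-2397 at 10 nM in NCI-H1373. In NCI-H1373 it gave 7 over all treatments, 6 for RBN012337 at 10 nM and 3 for the difference between times, for which 252 genes of the whole table were called higher in place of 49.

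Leaving out 1 library at a time gave 1 to 7 over all treatments in NCI-H1373 and 0 to 6 in NCI-H647. Ranges for RBN-2397 were 0 to 5 in both lines at 10 nM, 0 to 6 and 0 to 5 at 30 nM, and 5 to 7 and 0 to 6 at 300 nM. For RBN012337 they were 0 to 3 and 0 to 0 at 3 nM, 0 to 4 and 0 to 0 at 10 nM, and 0 to 4 and 0 to 5 at 100 nM. The difference between times gave 0 to 5 and 0 to 1, the DMSO lines 2 to 3, and every other comparison 0 to 0. Directions turned in 3 cases, all RBN012337 at 100 nM in NCI-H1373: IFITM2 at -0.12 without DMSO replicate 2 and at -0.42 without replicate 3 of that treatment (range -0.42 to 0.66), and IFITM3 at -0.063 without the latter (range -0.063 to 1.33). Causes were not tested. Low DMSO levels limit precision for IFI44L in NCI-H1373 (from 2.05 CPM) and for IFI27 and IFITM1 in NCI-H647 (from 3.47 and 4.29 CPM).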
